A study of Mus musculus with 4 samples.

Results

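The genes described here encode brakes on the mitogen-activated protein (MAP) kinase pathways: the dual-specificity phosphatases Dusp1, Dusp2, Dusp4, Dusp5, Dusp6 and Dusp10, the Sprouty proteins Spry1 and Spry2, and the Spred proteins Spred1 and Spred2. They were taken as every probe set that the platform annotation assigns to 1 of these 10 gene symbols. That gave 23 of the 45101 probe sets on the array, and 10 of the 18193 genes named there. The 4 samples were regulatory T (Treg) cells, the Foxp3-expressing CD4+ cells that hold other immune cells in check, taken from spleens of C57BL/6 mice. On 2 arrays the titles read Foxo1/3-deficient and the genotype field Foxo1-deficient, and these were set against 2 wild-type arrays, and the titles number 2 pairs, each with 1 array of either genotype. No treatment and no age is given in the labels, nor the means of deletion or the number of animals behind an array.

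MAP kinase cascades carry signals from the T cell receptor, cytokine receptors and stress to the nucleus, and the best studied runs from Ras through Raf and MEK to the kinase ERK. Dual-specificity phosphatases end the signal by removing phosphate from both the threonine and the tyrosine of an active MAP kinase, whereas Sprouty and Spred proteins act higher up, at Ras and Raf. Many of these brakes are themselves induced by the signal they restrain, so their transcripts are often read together with immediate-early genes in activated T cells.

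Some facts of the arrays bear on what follows. Foxo1 went against the label, with signals of 6949 and 6697 on the labelled-deficient arrays against 2383 and 1254 on the wild-type arrays, and Foxo3 read 1424 and 1308 against 1876 and 2635. Every direction below is therefore that of the arrays as labelled. The labelled cell type was borne out by its markers, with Foxp3 at 6504 and 6056 on the labelled-deficient arrays. The 8 Treg and T cell markers together summed to between 55059 and 55471 on the labelled-deficient and between 55160.2 and 57625 on the wild-type arrays. Within that sum Il2ra read 4416 and 3962 on the labelled-deficient against 2449 and 3584 on the wild-type arrays. Ctla4 read 7377 and 8287 against 6516 and 6960. Neither Il2ra nor Ctla4 passed the test, and the genotypes overlapped for the other markers in the sum. Sums over the markers of other cells did differ: the 6 macrophage and monocyte markers summed to 9989 and 7514 on the labelled-deficient arrays (pair 1, then pair 2, here and below) against 7230.0 and 4762 on the wild-type arrays, the 4 measured natural killer cell markers to 434 and 362 against 1151 and 1491, and the 5 measured neutrophil markers to 395 and 336 against 975 and 890.2. A single gene carried most of each of these differences in summed signal. Csf1r read 6676 and 5165 against 4749 and 2987, Eomes 356 and 310.0 against 1036 and 1425, and Mmp9 47.4 and 259 against 515 and 632. The macrophage genes Adgre1 (1538 and 978 against 691 and 508) and Fcgr1 (144 and 99.8 against 96.4 and 87.2) were also higher without overlap. Lyz2, Cd68 and Cd14 overlapped between the genotypes. So did the other 4 neutrophil markers and the dim natural killer cell genes Ncr1, Klre1 and Klra8. Within these lists Eomes alone passed the test (limma adjusted p = 0.0200), and Pax5, Ncr1 and S100a9 lay under the filter on dim probe sets. When the fit took the pair as a block, Adgre1 (log2 difference 1.03, adjusted p = 0.000934), Csf1r (0.64, 0.0101) and the B cell gene Ms4a1 (0.89, 0.00494) were higher, and Eomes (-1.82, 1.38e-05), Mmp9 (-2.14, 0.000341) and the B cell gene Cd22 (-0.75, 0.0266) lower. The ratio of 3-prime to 5-prime signal of the Gapdh control probes, a measure of RNA integrity, was 3.30 and 3.63 on the labelled-deficient and 4.34 and 2.66 on the wild-type arrays. Xist, the transcript of the inactive X chromosome, read 11497 and 83.0 on the labelled-deficient and 11569 and 4589 on the wild-type arrays. The genotypes thus lay close together in pair 1 but far apart in pair 2, so pair 2 was not matched for Xist. The part of these differences in any result below was not tested.

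The 10 genes did not move together. On the brightest probe sets of Spry1, Spred1, Spred2 and Dusp6 both labelled-deficient arrays read above both wild-type arrays, while the genotypes overlapped for the other phosphatases and for Spry2. Of the 10 genes 9 had a probe set above the filter, a mean signal of about 40.5, and were tested. Only Spry1 passed the threshold of 0.05 on the Benjamini-Hochberg adjusted p of limma, the linear model fitted over 12115 genes. That is 1 gene higher and 0 lower among 9, where over all genes 1.21% were called higher and 1.35% lower. With the pair as a block 4 of the 9 were higher and 0 lower, against 5.23% called higher and 6.36% lower over all genes. The RNA came from a bulk cell preparation, in which fewer cells of a type and less RNA per cell cannot be told apart.

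**Figure D1:**
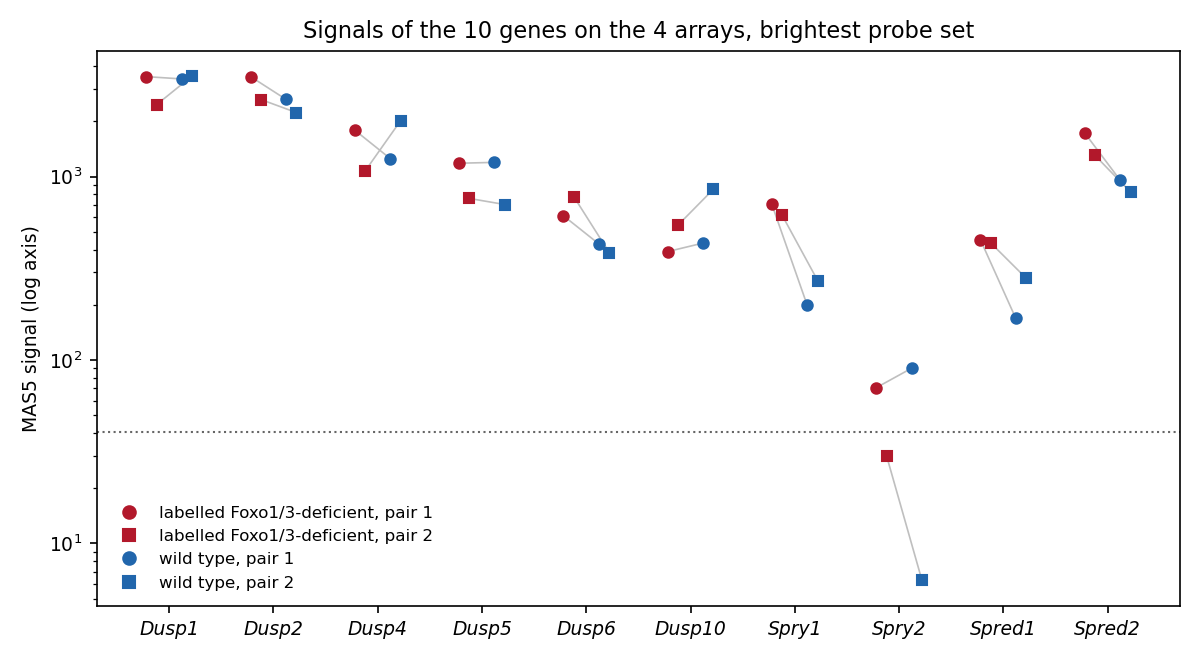
MAS5 signal (log axis) of the brightest probe set of each of the 10 genes on the 4 arrays, with labelled Foxo1/3-deficient arrays in red on the left and wild-type arrays in blue on the right of each gene; grey lines join the arrays of a pair, and the dotted line marks the filter at a signal of about 40.5. Both red points lie above both blue points for Dusp6, Spry1, Spred1 and Spred2; heights of different genes are not comparable, because they come from different probes.

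Dusp1, Dusp2, Dusp4 and Dusp5 encode the inducible phosphatases of the nucleus. Dusp1, which acts on p38, JNK and ERK, read 3509 and 2469.7 on the labelled-deficient arrays against 3409 and 3538 on the wild-type arrays. The 2 wild-type arrays and the labelled-deficient array of pair 1 lay close together, and the labelled-deficient array of pair 2 was the low one. The log2 difference was -0.24 ± 0.23 (SE, n = 2 each; limma adjusted p = 0.805), with a 95% interval of -0.77 to 0.29. This and all later log2 differences are of log2(signal + 17), labelled-deficient minus wild type, which understates the change of dim genes.

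Dusp2, a phosphatase known from activated lymphocytes, read 3513 and 2632 on the labelled-deficient arrays against 2639 and 2235 on the wild-type arrays. The labelled-deficient array was the higher in each pair, by 1.33 and 1.18 times, but the groups overlapped by a narrow margin. Its log2 difference was 0.32 ± 0.23 (limma adjusted p = 0.687; 95% interval -0.21 to 0.85).

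Among the 9 genes tested Dusp4 was the one whose pairs disagreed most. It read 1792 and 1075 on the labelled-deficient arrays against 1254 and 2019 on the wild-type arrays, so that the labelled-deficient array was the higher in pair 1 and the lower in pair 2. Within pairs the log2 difference was 0.51 in pair 1 and -0.90 in pair 2, and over both it was -0.19 ± 0.33 (limma adjusted p = 0.921; 95% interval -0.96 to 0.57). With 1 array of each genotype in a pair, the difference between the pairs could not be tested.

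Dusp5, a nuclear phosphatase specific to ERK, differed more by pair number than by genotype. Its signals were 1183 and 759.9 on the labelled-deficient arrays against 1196 and 704 on the wild-type arrays. Within pairs the ratio of labelled-deficient to wild type was 0.989 and 1.08, and the log2 difference was 0.05 ± 0.34 (limma adjusted p = 0.988; 95% interval -0.73 to 0.83). The log2 difference of pair 2 minus pair 1, with genotype as a covariate, was -0.69 ± 0.18 (SE; limma adjusted p = 0.0305). Dusp5 was the 1 gene of 9 called in that comparison, in which 6.78% of all genes were called, and 4 of 8 alternatives kept the call, with adjusted p values between 0.0180 and 0.281. The pairs also differed in Xist (above), which was lower on both arrays of pair 2. The genotypes differed there too, at 83.0 on the labelled-deficient against 4589 on the wild-type array. The bearing of Xist on Dusp5 was not tested.

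Dusp10, which acts on p38 and JNK and not on ERK, was on average the lower on the labelled-deficient arrays, though the groups overlapped. Its brighter probe set read 389.8 and 544 there against 434 and 854 on the wild-type arrays. The wild-type array of pair 2 stood well above the other three. The log2 difference was -0.39 ± 0.36 (limma adjusted p = 0.797; 95% interval -1.24 to 0.46), and the pairs differed by 0.71 ± 0.22 (pair 2 minus pair 1, adjusted p = 0.0654). The other probe set of Dusp10 lay under the filter, at 78.1 and 3.20 on the labelled-deficient against 74.7 and 15.9 on the wild-type arrays.

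Dusp6 encodes the cytoplasmic phosphatase specific to ERK, and its transcript is a common readout of ERK activity because ERK signalling induces it. It read 612 and 779 on the labelled-deficient arrays against 429.8 and 385 on the wild-type arrays. Both labelled-deficient arrays thus lay above both wild-type arrays, by 1.42 times in pair 1 and 2.02 times in pair 2. The log2 difference was 0.74 ± 0.26 (SE, n = 2 each), with a limma adjusted p of 0.257, an unadjusted p of 0.0240 and a 95% interval of 0.13 to 1.35. Blocked on the pair, the adjusted p was 0.0372, the lowest of the 14 alternatives, whose highest was 0.749. Among the dual-specificity phosphatases it was the only one of the 6 whose groups did not overlap on the brightest probe set. Over all 45037 probe sets other than array controls, 19.2% also lay above without overlap and 16.9% below.

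Spry1 had the largest log2 difference of the 9 genes tested. Sprouty proteins dampen signalling from receptors to Ras and ERK, and Spry1 has been described as an inhibitor of T cell receptor signalling. Its single probe set read 706 and 614 on the labelled-deficient arrays against 198 and 271 on the wild-type arrays. The lowest labelled-deficient signal was above the highest wild-type one, and the ratio was 3.56 in pair 1 and 2.27 in pair 2. The means were 660 ± 65.3 on the labelled-deficient and 234 ± 51.3 on the wild-type arrays (SD, n = 2 each).

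On the log2 scale Spry1 differed by 1.44 ± 0.28 (SE), a 2.71-fold rise with a limma adjusted p of 0.0465 and a 95% interval of 0.78 to 2.10. By the size of its log2 difference it ranked 335 of 12115 genes. Blocking on the pair gave an adjusted p of 0.000593. The call sat close to the threshold: the adjusted p was 0.223 without labelled-deficient replicate 1, 0.116 without labelled-deficient replicate 2, 0.0619 without wild-type replicate 1 and 0.0198 without wild-type replicate 2. It was 0.0729 when all 27022 kept probe sets were tested and 0.0598 after quantile normalization, and 6 of 14 alternatives kept the call.

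Spry2, the other Sprouty gene, lay under the filter and was not tested in the main fit. Its brighter probe set was at the 39.6th percentile of mean log2 signal, just under the cut at the 40th. One of its probe sets read 70.5 and 30.0 on the labelled-deficient arrays against 90.1 and 6.27 on the wild-type arrays. The other read 46.4 and 13.6 against 44.8 and 49.8. The arrays of a group differed among themselves by as much as the group means did, except for the wild-type arrays of the latter probe set. The 2 probe sets pointed in opposite directions.

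**Figure D2:**
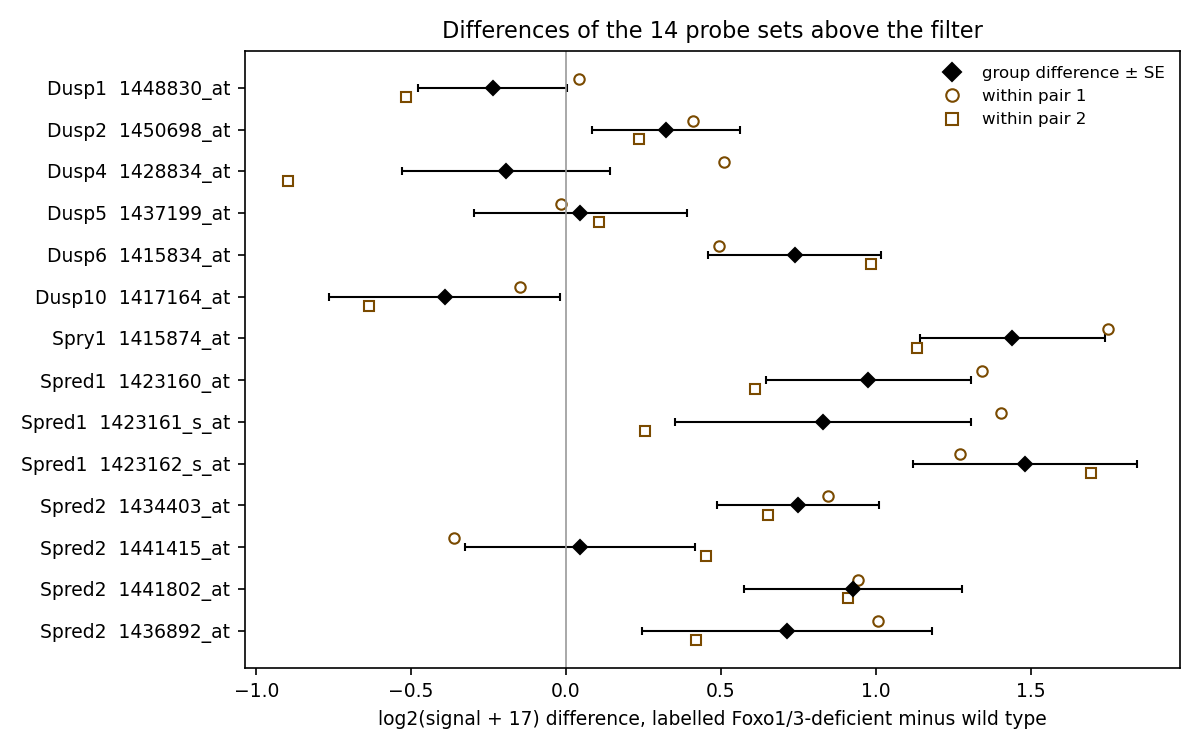
Difference in log2(signal + 17), labelled Foxo1/3-deficient minus wild type, for the 14 probe sets above the filter; black diamonds with bars give the group difference ± SE of limma over 27022 probe sets, open circles the difference within pair 1 and open squares within pair 2. Dusp2, Dusp6, Spry1, 3 Spred1 probe sets and the Spred2 probe sets other than 1441415_at lie right of 0 in both pairs. Dusp1, Dusp4, Dusp5 and Spred2 probe set 1441415_at lie on opposite sides of 0 in the 2 pairs.

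Spred1 and Spred2 encode membrane-bound relatives of Sprouty that bring the Ras inhibitor neurofibromin to the membrane. Spred1 read 453 and 434 on its brightest probe set on the labelled-deficient arrays against 168 and 279 on the wild-type arrays. The labelled-deficient arrays were nearly equal and both above the wild-type arrays, which differed more between themselves. The ratio was 2.69 in pair 1 and 1.56 in pair 2. The log2 difference of 0.98 ± 0.32 did not pass (limma adjusted p = 0.207, unadjusted p = 0.0164; 95% interval 0.23 to 1.72), but did so with blocking on the pair (adjusted p = 0.0234); the range over 14 alternatives was 0.0234 to 0.552. Without wild-type replicate 1 the log2 difference was 0.64.

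Spred1 had 8 probe sets, of which 3 lay above the filter. A second, 1423161_s_at, read 154 and 184 on the labelled-deficient against 47.7 and 152 on the wild-type arrays, so that the groups were separated in pair 1 far more than in pair 2. Another, 1423162_s_at, read 122 and 168 against 40.8 and 40.1, a log2 difference of 1.48 ± 0.36 (limma over probe sets, adjusted p = 0.121). Its wild-type signals sat at the filter itself, so it entered the test through its labelled-deficient signals. The _s_ in these names marks probes that match more than 1 transcript. The remaining 5 were dim: among them the brightest 2 read 63.7 and 30.2 against 18.0 and 23.5, and 56.5 and 29.4 against 18.7 and 43.5, and the other 3 had no signal above 45.3.

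Spred2 read 1731 and 1303 on its brightest probe set on the labelled-deficient arrays against 956 and 823 on the wild-type arrays. Again both labelled-deficient arrays were the higher, by 1.81 times in pair 1 and 1.58 times in pair 2. The log2 difference was 0.75 ± 0.25 (limma adjusted p = 0.213, unadjusted p = 0.0171; 95% interval 0.17 to 1.32). Blocked on the pair, the adjusted p was 0.00697, and over 14 alternatives it ran from there to 0.800.

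The other probe sets of Spred2 did not all repeat this. Probe set 1441802_at read 125 and 154 on the labelled-deficient against 57.0 and 73.9 on the wild-type arrays, with ratios of 2.20 and 2.08, and a log2 difference of 0.93 ± 0.35 (limma over probe sets, adjusted p = 0.368). Probe set 1436892_at read 198 and 78.5 against 90.1 and 54.5, higher in each pair but with overlapping groups. Probe set 1441415_at read 130.5 and 245 against 172 and 175, a log2 difference of 0.05 ± 0.37, and its pairs went opposite ways. The fifth, 1423001_at, stayed below a signal of 10 on all 4 arrays.

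**Figure D3:**
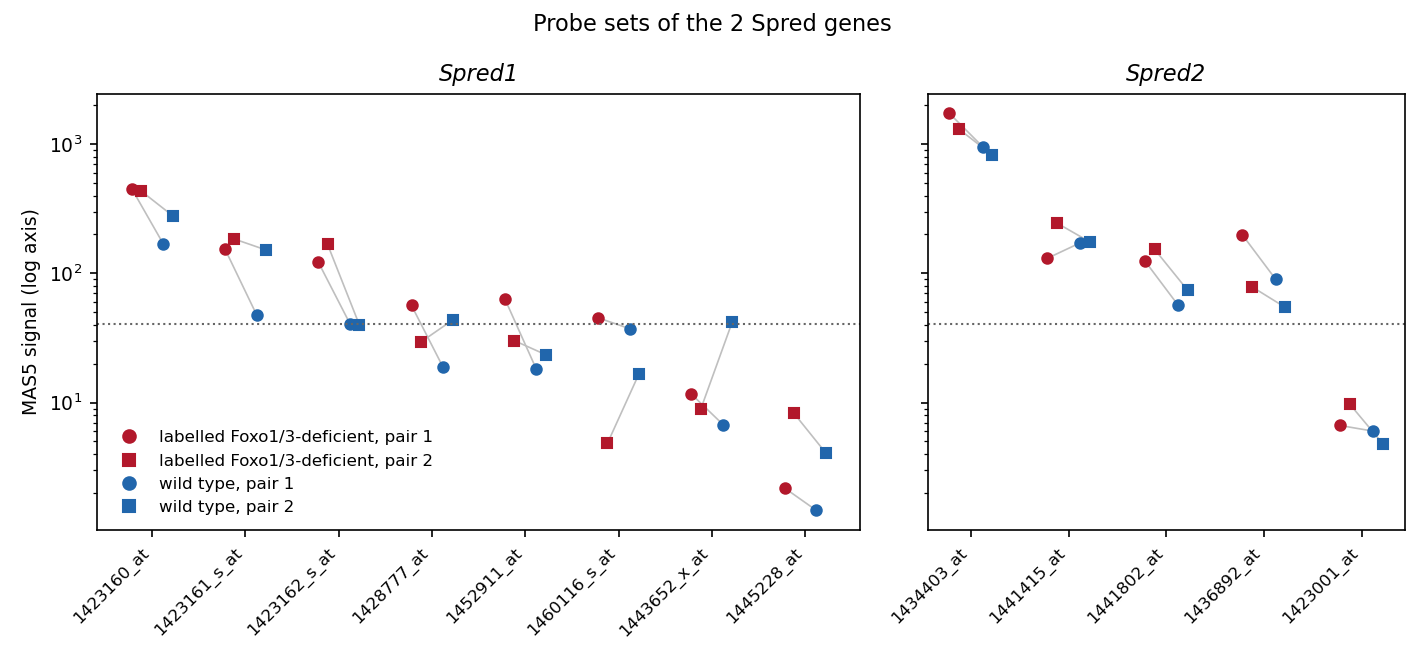
MAS5 signal (log axis) of the 8 Spred1 and 5 Spred2 probe sets on the 4 arrays, brightest on the left, with labelled Foxo1/3-deficient arrays in red left of wild-type arrays in blue; grey lines join the arrays of a pair and the dotted line marks the filter at about 40.5. The 3 Spred1 probe sets above the line have both red points above both blue points, and Spred2 probe set 1441415_at does not.

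Counted over all 23 probe sets, dim ones included, both labelled-deficient arrays lay above both wild-type arrays for 9, below them for 0, and overlapped them for 14. Over all 45037 probe sets other than array controls, 19.2% lay above and 16.9% below. The 9 belonged to Dusp6, Spry1, Spred1 (4) and Spred2 (3), so they stand for 4 genes and not for 9 separate measurements. When each of the 27022 kept probe sets was tested on its own, 0 of the 14 kept were called higher and 0 lower by limma, where 0.633% of all were called higher and 0.529% lower. At an unadjusted p under 0.05 there were 6 higher and 0 lower, where 1508 of all 27022 were higher and 1365 lower; the 6 include 1423162_s_at, with wild-type signals at the filter. With the pair as a block 2 were called higher and 0 lower, Spry1 (adjusted p = 0.0121) and the brightest Spred2 probe set (0.0482), where 2.52% of all were higher and 2.61% lower.

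The sequence before the start of these genes is shown for the 4 whose genotypes did not overlap, Spry1, Spred1, Spred2 and Dusp6, and for Dusp1, a bright member whose genotypes did. Each run is the strand of the gene, 250 bases before to 50 after its start in RefSeq's GRCm38.p6 annotation. Capitals mark TGACGTC on either strand, the core of the cAMP response element at which CREB binds. The windows are chr3:37639697-37639996 (+) for Spry1, chr2:117120821-117121120 (+) for Spred1, chr11:19924192-19924491 (+) for Spred2, chr10:99262981-99263280 (+) for Dusp6 and chr17:26508423-26508722 (-) for Dusp1.
Spry1: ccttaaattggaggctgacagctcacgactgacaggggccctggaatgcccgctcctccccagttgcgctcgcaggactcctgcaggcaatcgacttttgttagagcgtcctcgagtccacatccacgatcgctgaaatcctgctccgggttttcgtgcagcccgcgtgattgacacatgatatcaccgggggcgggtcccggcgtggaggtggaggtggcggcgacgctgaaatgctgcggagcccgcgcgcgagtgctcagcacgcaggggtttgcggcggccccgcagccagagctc
Spred1: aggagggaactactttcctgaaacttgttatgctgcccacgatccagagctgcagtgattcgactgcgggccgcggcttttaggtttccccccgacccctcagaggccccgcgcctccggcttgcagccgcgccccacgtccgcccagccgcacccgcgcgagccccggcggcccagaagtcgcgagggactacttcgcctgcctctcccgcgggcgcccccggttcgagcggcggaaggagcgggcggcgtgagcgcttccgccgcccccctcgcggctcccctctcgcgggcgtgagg
Spred2: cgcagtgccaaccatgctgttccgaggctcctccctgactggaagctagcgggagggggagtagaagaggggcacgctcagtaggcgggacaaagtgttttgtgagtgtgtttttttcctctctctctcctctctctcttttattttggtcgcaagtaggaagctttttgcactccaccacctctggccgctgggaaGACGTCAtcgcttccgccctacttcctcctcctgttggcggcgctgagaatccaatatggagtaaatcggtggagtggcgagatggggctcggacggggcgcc
Dusp6: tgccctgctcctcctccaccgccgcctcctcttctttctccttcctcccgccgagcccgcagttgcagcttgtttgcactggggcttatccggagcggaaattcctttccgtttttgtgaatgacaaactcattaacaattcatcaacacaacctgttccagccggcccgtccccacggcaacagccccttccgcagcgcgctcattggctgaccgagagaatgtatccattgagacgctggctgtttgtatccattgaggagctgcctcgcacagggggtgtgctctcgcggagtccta
Dusp1: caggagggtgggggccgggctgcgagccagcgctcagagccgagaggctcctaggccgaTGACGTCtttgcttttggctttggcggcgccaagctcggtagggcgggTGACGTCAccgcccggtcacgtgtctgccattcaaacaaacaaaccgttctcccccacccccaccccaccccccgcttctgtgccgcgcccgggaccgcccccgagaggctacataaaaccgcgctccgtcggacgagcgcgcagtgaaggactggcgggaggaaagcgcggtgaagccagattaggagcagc

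Of the 10 genes 9 had such a window, and 5 motifs were searched on both strands. The FoxO site GTAAACA was in none of the 9, and neither was the shorter forkhead core TAAACA that it contains; they occur in 3.65% and 13.4% of all 32851 windows. The AP-1 site TGAGTCA (5.20% of all windows) and the ETS site CCGGAAG (8.86%) were in none either. The core TGACGTC, in 3.21% of all windows, was in Dusp1 and Spred2 only. Dusp1 held it 2 times, 191 and 143 bases before the start, the second as part of an 8-base palindrome that matches on both strands, and Spred2 held it once, starting 53 bases before the start. TGACGTC and TAAACA were added after the promoter sequences were read, so their counts among the 9 windows cannot be weighed against these shares. A match is a run of letters and not a bound site, and a missing match says nothing of the factor outside these 300 bases.

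The lists of related genes held kinases and adaptors that these brakes act on, other phosphatases and inhibitors, Sprouty relatives and ERK-induced genes. They came to 97 genes, of which 86 were measured and 75 tested. By limma 3 were higher and 1 lower, 5.33% of those tested against 2.57% of all genes. The 3 include Mapk12, whose wild-type signals both lay under the filter. The median log2 difference was 0.05, against 0.00 over all genes. Counts with the pair as a block, below, stand against 5.23% of all genes higher and 6.36% lower. In the ERK cascade 1 of 18 was higher and 0 lower (median -0.02). It was Rras2, a Ras-family GTPase, at 2729.7 and 2868 on the labelled-deficient against 959.6 and 583 on the wild-type arrays, 3.68-fold higher (log2 1.88 ± 0.28, adjusted p = 0.0198). When the pair was a block, 1 was higher and 2 were lower, the MEK kinase gene Map3k8 and the scaffold gene Ksr1, both named after their values were seen.

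Among the p38 and JNK genes 2 of 18 were higher and 0 lower (median 0.03), and both encode p38 kinases. Mapk11, which encodes p38 beta, read 897 and 771 on the labelled-deficient against 238 and 295 on the wild-type arrays (3.01-fold; adjusted p = 0.0288). Mapk12, which encodes p38 gamma, read 206 and 184 against 34.2 and 4.01 (log2 2.69 ± 0.48; adjusted p = 0.0332). Both wild-type signals of Mapk12 lay under the filter, so it entered the test through its labelled-deficient signals and the size of its difference is loose: the log2 value was 1.53 with a pseudocount of 76 and 4.06 with none, where the call was lost (adjusted p = 0.0773). Mapk14, the gene of p38 alpha, was named for comparison after its values were seen and read 5106 and 5452 against 4438 and 3374 (log2 0.45 ± 0.21, adjusted p = 0.440). Leaving out labelled-deficient replicate 1 or 2 ended the call of Mapk11 (adjusted p = 0.145 and 0.0719), and that of Mapk12 (0.0723 and 0.0538). With the pair as a block 3 of the 18 were higher, Mapk11, Mapk12 and Map3k1, and 2 lower, Map2k3 and Mapkapk3. Map3k1, Map2k3 and Mapkapk3 were named after their values were seen. Map2k3 read 1081 and 596 against 2041 and 1574 (log2 -1.14, limma adjusted p with the block 0.000249, without it 0.134). Mapkapk3 read 3890 and 2537 against 6864 and 6093 (log2 -1.04, limma adjusted p with the block 0.000214, without it 0.0770).

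Of 14 other inhibitors of Ras and ERK 0 were higher and 1 lower (median 0.07). Errfi1, an inhibitor of receptors of the epidermal growth factor family, read 653 and 766 on the labelled-deficient against 1742 and 1512 on the wild-type arrays, 2.26-fold lower (log2 -1.18 ± 0.23, adjusted p = 0.0471). Its adjusted p was 0.242 without labelled-deficient replicate 1, 0.117 without labelled-deficient replicate 2 and 0.0809 without wild-type replicate 1. With the block 2 were higher, Rasa1 and Rasa3, both named after their values were seen, and 1 lower.

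The remaining phosphatases and Sprouty relatives gave no call. Of 6 other MAP kinase phosphatases tested 0 passed (median 0.13), and 1 was lower at an unadjusted p under 0.05: Dusp3, at 88.7 and 58.8 on the labelled-deficient against 178 and 178 on the wild-type arrays (log2 -1.12 ± 0.34, adjusted p = 0.170). On the first-listed probe set of Dusp3 the log2 difference was 0.17. The highest of the 6, Dusp16, which acts on JNK and p38, was at 0.55 ± 0.29 (adjusted p = 0.538). Spry4, the single other Sprouty gene above the filter, read 75.1 and 81.8 against 10.2 and 65.7 (log2 1.01 ± 0.55, adjusted p = 0.544). Its wild-type mean of 37.9 lay under the filter, and its log2 difference was 0.20 without wild-type replicate 1, 1.81 without wild-type replicate 2, 1.60 with no pseudocount and 0.48 with one of 76.

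Transcripts that ERK signalling induces were measured beside Dusp6, Spry1 and the Spred genes. Of 18 tested 0 passed by limma in either direction, with a median log2 difference of 0.11, and 3 were higher and 1 lower at an unadjusted p under 0.05, where 718 of all 12115 genes were higher and 854 lower. The same numbers passed with the pair as a block: Etv5, Egr3 and Myc were higher and Fosl2 lower, of which Egr3 and Myc were named after their values were seen. Etv5, an ETS factor gene, was the highest of the list at 219.7 and 192 on the labelled-deficient against 61.7 and 79.8 on the wild-type arrays (log2 1.35 ± 0.33, adjusted p = 0.0860). Fosl2, an AP-1 subunit gene, was the lowest at 174 and 320.2 against 498 and 473 (log2 -0.99 ± 0.34, adjusted p = 0.234); the value was -0.57 without labelled-deficient replicate 1 and -0.33 on the first-listed probe set. Egr1 and Fos, early genes named after their values were seen, overlapped between the groups, as Dusp1 did: Egr1 read 8207 and 5935 against 5615 and 6120.4, and Fos 3351 and 2542 against 5473 and 2267. Egr3 (4153 and 3639 against 2093 and 2738) and Myc (2356 and 1731 against 1148 and 958) were higher without overlap. Without the block their limma adjusted p values were 0.187 and 0.114. Fosl2 and Elk3 were lower without overlap.

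**Figure D4:**
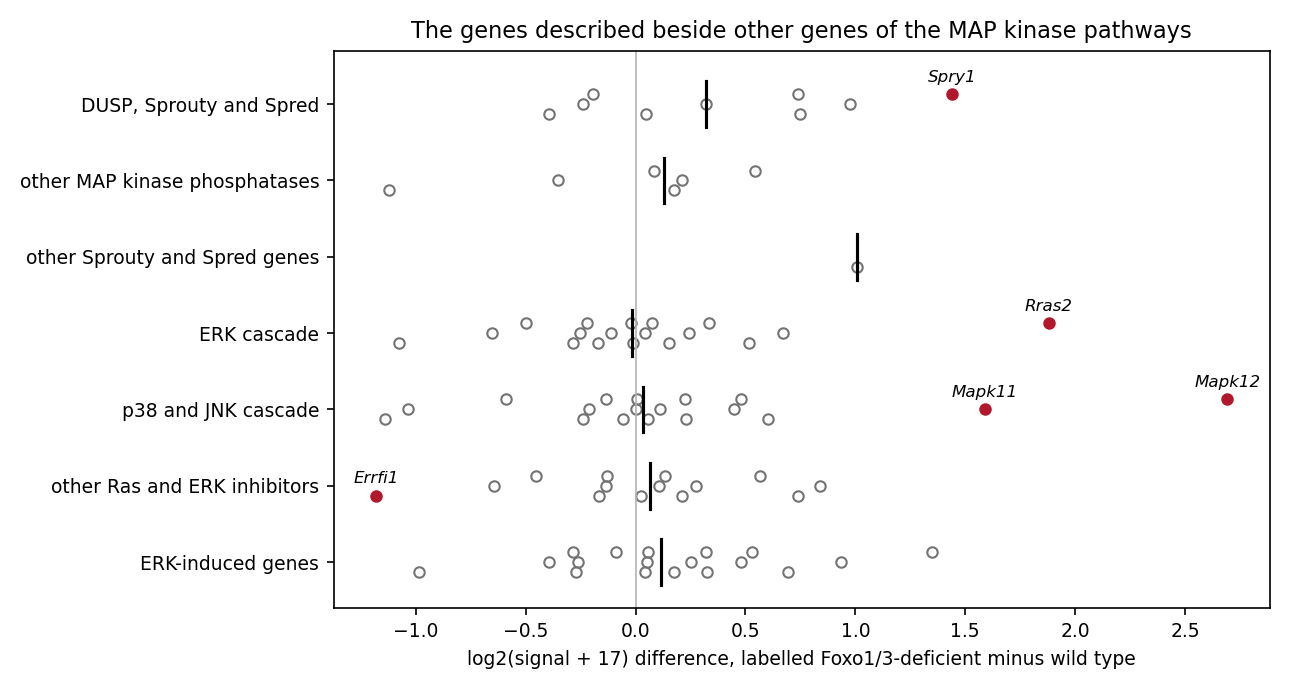
Difference in log2(signal + 17), labelled Foxo1/3-deficient minus wild type, of each gene tested in the DUSP, Sprouty and Spred group and in 6 lists of related genes; every point is a gene, filled red points passed the adjusted p of 0.05 in limma and are named, and the black bar is the median of the list. Spry1 is the filled point of the top row, and Rras2, Mapk11, Mapk12 and Errfi1 are the filled points of the other rows.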

How the data were processed

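The deposited values are linear intensities of probe sets, made by the authors with MAS5, per the submitters' processing notes. No version or setting of MAS5 is given in the sources used here. The 4 arrays share a 2% trimmed mean of 500.003, so nothing was rescaled. Signals were tested as log2(signal + 17), 17 being the 25th percentile of all values, after probe sets under the 40th percentile of mean log2 signal were left out (27022 kept). The brightest kept probe set by mean log2 value stood for a gene, which gave 12115 genes across the whole array. The test was two-sided, from limma 3.58.1 under R 4.3.3 (lmFit, then eBayes with trend), and p-values were adjusted by Benjamini-Hochberg over all genes or all kept probe sets. The fit over genes had 2 residual degrees of freedom, with 5.69 added from the shared variance model. With the pair as a block it had 1, and the number added there is not given. An exact test of 2 arrays against 2 cannot go below p = 0.333. The pairing comes from the titles; deviations from the group means correlated across 12115 genes within pairs at r = 0.367, over 2 pairs. P-values measure only the spread between these arrays, which nothing in the labels ties to separate animals. The number of arrays limits the precision.

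A platform annotation, possibly old, names 1 gene for 34945 probe sets; 932 have several names and 9160 have none. Of the 34945, the Entrez IDs of 34741 were in RefSeq's GRCm38.p6 gene table. The members, lists and motifs were chosen with earlier results of these data known, and the motifs TGACGTC and TAAACA were added after the promoter sequences were read. From each list the genes past the threshold were named, or else the highest and lowest. The test was checked on simulated data.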

Additional observations from a re-analysis of the deposited data

How the results depend on the processing

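All 14 alternatives kept the sign of the genotype difference for Dusp2, Dusp6, Spry1, Spred1 and Spred2. Of the 9 genes tested, 4 passed with the pair as a block, and 0 passed without the filter (of 10), after quantile normalization, without the intensity trend, on the first-listed probe sets or with every kept probe set tested; leaving out 1 array gave between 0 and 1. The kept probe sets gave 2 calls with the block. The related genes gave 15 calls with the block, 0 without the filter and 0 without the trend, and between 1 and 4 with 1 array left out. Pair 2 against pair 1 gave 2 calls without a pseudocount and on the mean of the kept probe sets, and 0 without the filter, after quantile normalization, without the trend and on first-listed probe sets. Signs turned as follows. With each array left out in turn the log2 difference lay between -0.49 and 0.015 for Dusp1, -0.56 and 0.17 for Dusp4, -0.33 and 0.42 for Dusp5, -0.87 and 0.083 for Dusp10, and -0.37 and 0.46 for Spred2 probe set 1441415_at. That probe set was at -0.053 after quantile normalization. For Dusp3 the first-listed probe set gave 0.17. The cause was not tested. More features were adjusted over without the filter and with every probe set. With every probe set the SE of Spry1 was also larger, at 0.299 against 0.284 over genes, and these changes were not separated. Spry2 and 9 probe sets were too dim for a statement.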
